A study of Rattus norvegicus with 9 samples.

Results

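Rat pulmonary artery smooth muscle cells (PASMCs) that were held in hypoxia and given quercetin were compared with PASMCs that stayed in normoxia and were given no quercetin. The comparison uses 6 of the 9 arrays of the study, 3 per group, chosen by their labels, and it covers all 22100 genes tested. The other 3 arrays, of hypoxia without quercetin, are shown beside many of the values as the hypoxia level. All cells came from the pulmonary artery of male SD rats and were in culture generation 4. The hypoxia groups were kept in a sealed chamber at 1% oxygen with 5% CO2, and the normoxia group in an ordinary incubator. After 24 h without serum the cells received quercetin or 0.1% DMSO, its vehicle, for 24 h, together with 10% serum. The dose of quercetin, the length of hypoxia and whether the normoxia cells received DMSO are not given in the sources used here. Because quercetin was added only in hypoxia, a difference from normoxia joins the effect of low oxygen and the effect of quercetin, and only the hypoxia level shows how far each gene already lay from normoxia without quercetin. Nothing in the labels states whether replicates came from different cultures, so p-values speak only to the variation among these arrays, and that variation may be technical.

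Low oxygen stabilises the hypoxia-inducible factors (HIF), transcription factors that switch on glycolysis, glucose uptake, carbonic anhydrases and secreted growth factors. In the wall of lung arteries chronic hypoxia is known for proliferation of smooth muscle cells, deposition of matrix and a change in vascular tone. Quercetin is a plant flavonol that binds metals and scavenges radicals and inhibits several protein kinases.

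RNA was hybridised in 1 colour. The labels name a labelling kit for miRNA, whereas the file headers name a gene expression protocol, and which was used is not settled here. A level is the log2 of the background-subtracted intensity minus the 75th percentile of its array. Levels of different genes come from different probes and are not compared with each other. A difference is the log2 difference between group means ± its standard error (SE), from limma over all 9 arrays with n = 3 per group. A gene passed at a Benjamini-Hochberg adjusted p under 0.05 over all genes. The words rose and fell are used of genes that passed against normoxia. Between 65.1% and 74.3% of probes were well above background on the normoxia arrays and between 53.9% and 68.7% on the quercetin arrays. Among the genes named here 2 of 3 quercetin arrays were above background for Casp1, Casp8, Col14a1, Cp, Ctsc, Cyp2j4, Dcn, Dennd2d, Gucy1a1, Igfbp5, Kcnk3, Kcnmb1, Mgst1, Mmp9, Ptn, Tapbpl and Vcam1, and fewer than 3 normoxia arrays for Jag2, Cox8b, Matn1 and Derl3. Where no array of a group was, a fold is given as a bound. Across genes, arrays correlated at 0.986 to 0.994 within normoxia, 0.989 to 0.993 within the quercetin group and 0.955 to 0.970 between them. Between normoxia and hypoxia alone the range was lower, 0.933 to 0.957. One slide, with an earlier scan day than the rest, carried normoxia replicates 1 and 2. Normoxia replicate 3 was on the slide of the hypoxia arrays, and the quercetin arrays were on a slide of their own with that same scan day. Normoxia replicate 2 stood apart from the other normoxia arrays, most strongly in oxygen-dependent genes. Its HIF target list lay at a median of -1.33 and its glycolysis list at -1.04 from the mean of those other arrays. Chemokines and cytokines lay at 0.59 on it, DNA replication genes at 0.48 and smooth muscle markers at 0.47.

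The smooth muscle label was checked on markers. All 12 smooth muscle markers with a probe were well above background, and no probe bore the name Acta2. Summed on the linear scale, their signal over the array's 75th percentile ran from 619 to 906 on normoxia arrays, from 557 to 638 on quercetin arrays and from 1170 to 1300 on hypoxia arrays. Of 10 endothelial markers only 3 were above background, and Pecam1 and Vwf were not. Leukocyte markers summed to 5.09 to 6.53 on normoxia arrays, 3.90 to 4.17 on quercetin arrays and 5.36 to 5.77 on hypoxia arrays, with 10 of 16 above background and Cd3e, Cd79a and Itgam below it. Epithelial markers summed to 3.99 to 6.04, 7.73 to 9.33 and 39.9 to 47.4 in the same order of groups, with Epcam and Cdh1 below background. Fibroblast markers summed to 950 to 986, 893 to 963 and 1240 to 1370 in that order. In these bulk samples fewer cells of a type and less RNA per cell cannot be told apart.

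With quercetin present, cells in hypoxia differed from normoxia in many genes. Of 22100 genes, 9795 passed (44.3%), 5085 of them higher (23.0%) and 4710 lower (21.3%) than in normoxia. The 3 quercetin arrays and the 3 normoxia arrays did not overlap for 11844 genes (53.6%). A change of at least 2-fold was found for 2859 genes, 1259 higher and 1600 lower, and of at least 4-fold for 582 genes, 183 higher and 399 lower. Scaled to labelling spike-in probes in place of the 75th percentile, the median over all genes moved from 0.04 to -0.36, and the split became 1688 higher and 9811 lower. With normexp background correction 3177 genes passed, and 51.0% of the genes changed at least 2-fold kept their call and direction. Another 175 of those 2859 genes had a difference of the opposite sign, whether or not it passed. Decreases at 2-fold were not in excess among the 17838 genes well above background on all 6 normoxia and quercetin arrays. There 1136 genes passed as higher by that much and 985 as lower, of 5099 and 4070 passing at any size. By its own rule the filter removes genes that fell to background with quercetin, so it cannot test the excess. The same limit holds wherever this filter is used below.

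The 2859 genes were sorted by where hypoxia alone had put them. The sorting is a description with no test of its own, and the 2 differences from normoxia share the normoxia arrays. For 882 genes (30.8%) the hypoxia level had passed the same way and the quercetin mean lay within 0.5 of it. These are called kept, 420 higher and 462 lower than normoxia. For 715 genes (25.0%) hypoxia alone lay within 0.5 of normoxia and quercetin passed against hypoxia, so the difference was new, 317 higher and 398 lower. A further 467 genes lay over 0.5 farther from normoxia than in hypoxia, 140 higher and 327 lower. The quercetin mean had moved part of the way back for 451 genes. Not counting those called new, 201 genes had passed in the opposite direction in hypoxia, 94 of them now higher than normoxia. New took precedence over farther and opposite, so those classes leave out genes within 0.5 of normoxia in hypoxia that met the rule for new. The other 143 fell in none of these classes.

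**Figure D1:**
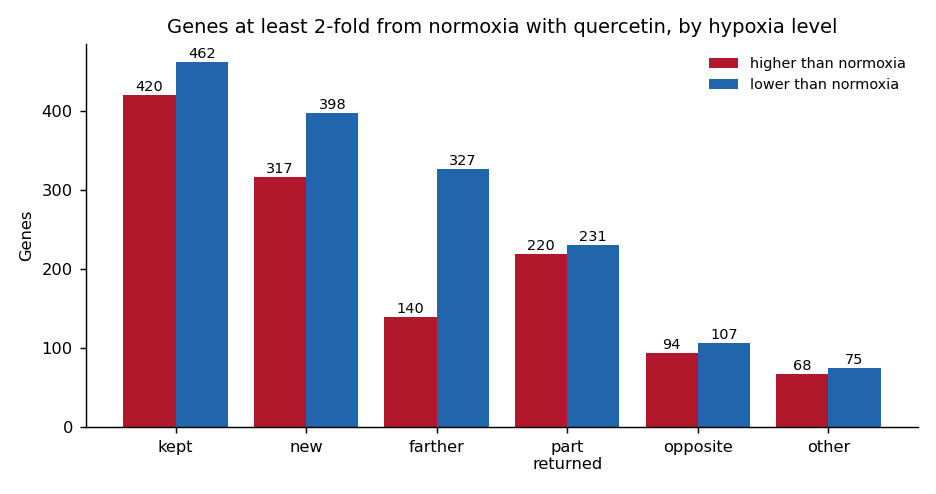
Number of genes (vertical axis) that passed with at least a 2-fold difference between hypoxia plus quercetin and normoxia, in 6 classes set by their level in hypoxia alone (horizontal axis), with red bars for higher and blue bars for lower than normoxia. The kept class is the fullest, with 420 higher and 462 lower, and among genes that went farther the lower ones (327) outnumber the higher ones (140).

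Genes that hypoxia moved and quercetin left in place included receptors, secreted enzymes and matrix genes. Jag2, a Notch ligand, read -6.28, -6.66 and -6.79 in normoxia and -2.47, -2.11 and -1.98 with quercetin, a rise of 4.39 ± 0.19 (adjusted p = 5.9e-06), beside 4.04 in hypoxia alone. All 3 quercetin arrays thus lay above all normoxia arrays by a wide margin, although only 1 normoxia array was above background. Pla2g2a, a secreted phospholipase, read 0.57, 1.74 and 0.15 in normoxia and -3.68, -4.07 and -3.65 with quercetin, so it fell by 4.62 ± 0.37 (hypoxia -4.66). Gas2, a cytoskeletal protein cut in apoptosis, fell from 1.73, 2.15 and 1.96 to -1.04, -1.45 and -1.11 (-3.15 ± 0.14, hypoxia -3.24). Its other probe gave -1.74 beside -0.66 in hypoxia, so by that probe it lay farther out with quercetin and was not kept. Slc26a7, an anion exchanger, was at least 6.59-fold lower, since no quercetin array was above background. A few kept genes rested in size on normoxia replicate 2: Tmem255b rose by 4.42 ± 0.74 and by 3.36 without it, and Matn1, a cartilage matrix protein, by 3.72 ± 0.72 and by 2.70.

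Other genes lay far from normoxia with quercetin but near it in hypoxia alone. Cox8b, an isoform of a cytochrome oxidase subunit best known from heart and skeletal muscle, read -6.08, -6.41 and -5.66 in normoxia, between -5.87 and -5.50 in hypoxia, and -1.95, -1.51 and -1.53 with quercetin. It rose by 4.38 ± 0.21 (adjusted p = 6.6e-06), and only 1 normoxia array and no hypoxia array was above background, so its levels there are not ordered. Atp6v1c2, a subunit of the proton pump of acidic organelles, rose by 3.20 ± 0.23, and Pla2g7, the secreted platelet-activating factor hydrolase, by 2.63 ± 0.29. Styxl1, a pseudophosphatase, rose from 0.23, 0.67 and 0.06 to 3.05, 2.61 and 3.00 (2.57 ± 0.18). In each of these genes the 6 untreated arrays, in normoxia or hypoxia, lay below every quercetin array.

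Among new decreases, C1r, the protease that starts the classical complement cascade, read 4.28, 4.17 and 3.95 in normoxia, 3.53 to 3.73 in hypoxia and 1.21, 1.08 and 1.15 with quercetin, a fall of 2.99 ± 0.11 (adjusted p = 2.3e-06). Arhgdib, an inhibitor of small GTPases, fell from 3.52, 3.58 and 2.85 to -0.15, 0.05 and -0.15 (-3.40 ± 0.18). Smpdl3a, a secreted nucleotide phosphodiesterase, fell by 2.96 ± 0.10, and Mmp9, a gelatinase, by 3.38 ± 0.29. Clic2, a chloride intracellular channel protein, was at least 4.39-fold lower. The mean hypoxia level of each gene named new lay within 0.5 of its normoxia mean.

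Some genes had already moved in hypoxia and lay farther out with quercetin. Derl3, which helps remove misfolded proteins from the endoplasmic reticulum (ER), had the largest increase of any gene with a symbol: it read -5.79, -5.63 and -5.84 in normoxia, -4.41 to -4.19 in hypoxia and -0.86, -1.35 and -0.69 with quercetin (4.78 ± 0.17, adjusted p = 1.9e-06). Fbxo36, an F-box protein, rose by 3.92 ± 0.22, Vgf, a secreted neuropeptide precursor, by 3.27 ± 0.25, and Trim14, an adaptor of antiviral signalling, by 2.74 ± 0.20. Ctsc, a lysosomal dipeptidase, fell from 1.05, 0.53 and 1.04 to -4.78, -4.06 and -4.14 (-5.20 ± 0.21), with hypoxia between at -1.02 to -0.83. Tnfsf15, a ligand of the tumour necrosis factor family, was at least 18.9-fold lower. No quercetin array was above background for Tnfsf15. For the other genes of this paragraph the quercetin arrays lay beyond the hypoxia arrays, on the far side from normoxia.

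For a smaller set, quercetin put genes on the other side of normoxia from where hypoxia had moved them. Kcnj8, the pore of a vascular ATP-sensitive potassium channel, read -3.68, -3.75 and -3.45 in normoxia, -5.64 to -5.05 in hypoxia and -2.35, -2.21 and -2.32 with quercetin (1.33 ± 0.15, adjusted p = 2.8e-04). Ppm1l, a protein phosphatase, rose by 1.34 ± 0.19 where hypoxia gave -1.90. Its other probes gave 1.18 and 1.31, with hypoxia at 0.16 and -0.56, so its place in this set rests on the probe. Slc40a1, the iron exporter ferroportin, rose by 1.03 ± 0.11 where hypoxia gave -1.88. Baat, which conjugates bile acids, rose by 2.47 ± 0.51. In the other direction Jazf1, a zinc finger cofactor, read -1.01, -1.14 and -0.78 in normoxia, 0.63 to 0.81 in hypoxia and -2.84, -2.61 and -2.69 with quercetin (-1.74 ± 0.12). Dennd2d, a Rab exchange factor, fell by 2.57 ± 0.16 where hypoxia gave 2.15. Ramp3, which shapes adrenomedullin receptors, fell by 1.57 ± 0.25 where hypoxia gave 2.37. By the brightest probe of each, the 3 groups were fully apart on the arrays for all 7 of these genes.

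**Figure D2:**
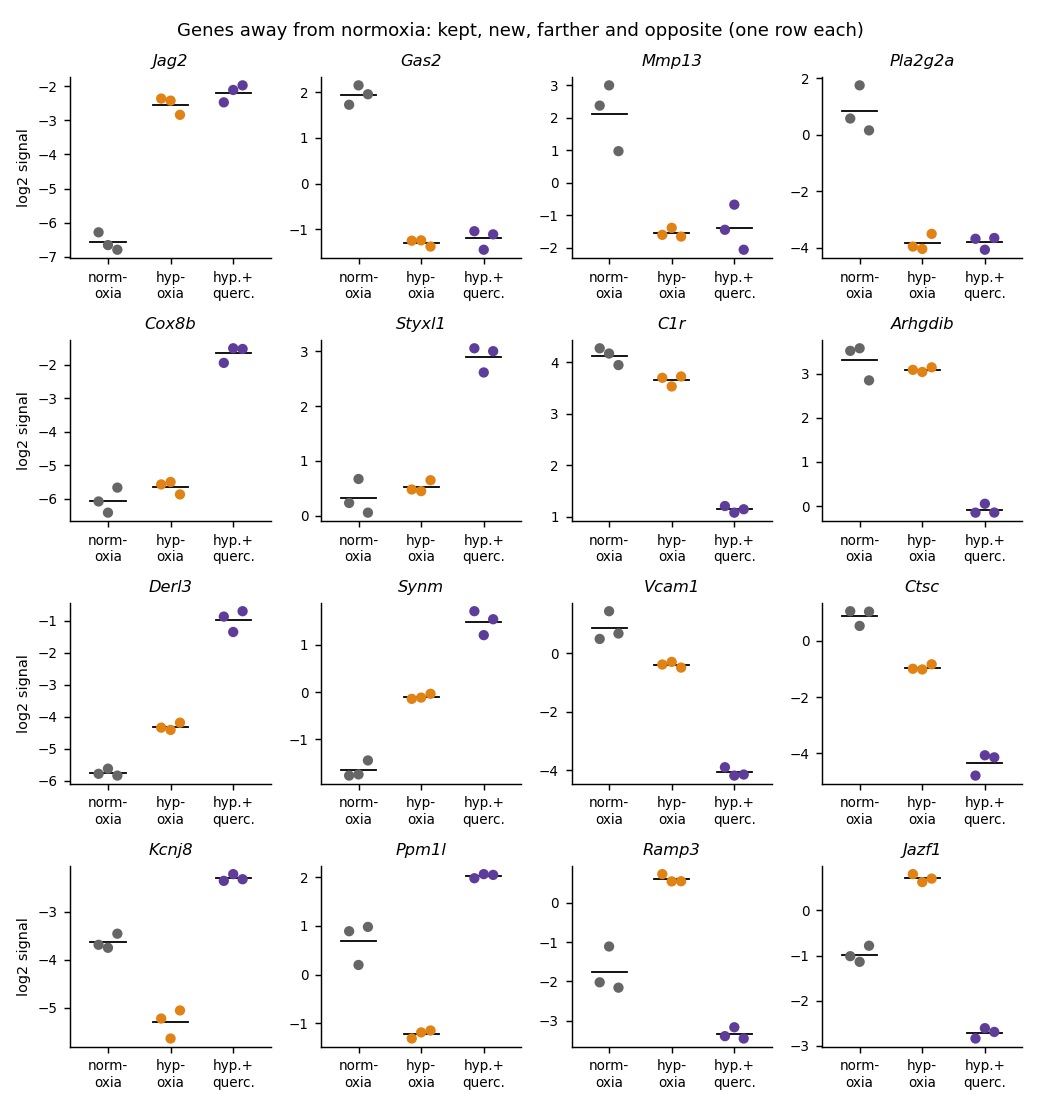
Level (vertical axes, log2 signal minus the array's 75th percentile) of 16 genes on each array, with 3 points per group for normoxia (grey), hypoxia (orange) and hypoxia plus quercetin (purple) and a line at each group mean. Rows show kept, new, farther and opposite genes from top to bottom, each classed by its brightest probe alone. In the second row, for example, Cox8b reads -6.41 to -5.50 on the 6 arrays without quercetin and -1.95 to -1.51 with it.

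Glycolysis aside, 21 of 40 measured HIF targets rose and 1 fell (Angptl4, by 1.67, a call lost under 8 of 19 alternatives). Their median difference from normoxia was 0.80, where hypoxia alone gave 1.56 and the median over all genes was 0.04. Of 22 glycolysis genes 13 rose and 1 fell, with a median of 0.78 beside 1.58 in hypoxia. Both medians stayed above 0 under every alternative run and were lowest with the spike-in probes, at 0.40 and 0.37. Normoxia replicate 2, low in these genes, set part of the size. Without it the medians were 0.43 and 0.45, and 22 HIF targets and 14 glycolysis genes rose. With scan day as a block, which leaves normoxia replicate 3 as the reference, 6 HIF targets and 1 glycolysis gene still rose.

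Car9, a carbonic anhydrase, read 1.97, 0.77 and 2.42 in normoxia and 3.35, 3.26 and 3.31 with quercetin, a rise of 1.59 ± 0.35 (adjusted p = 0.0066) beside 2.63 in hypoxia. Eno2, an enolase, rose by 1.44 ± 0.29 (hypoxia 2.27), and Plod2, which hydroxylates collagen lysines, by 0.78 ± 0.11 (hypoxia 1.31). These lay between normoxia and hypoxia. Slc2a1, the glucose transporter, read 7.08, 5.21 and 7.14 against 7.94, 8.38 and 8.09 (1.66 ± 0.45, adjusted p = 0.018), or 1.03 without normoxia replicate 2, and it did not pass without quercetin replicate 2, with scan day as a block or with normexp. Egln1, a prolyl hydroxylase that marks HIF for decay, rose by 1.64 ± 0.41, beside 1.65 in hypoxia. With scan day as a block Car9, Eno2 and Egln1 did not pass, nor did Egln1 and Plod2 with normexp. Other targets were higher with quercetin than hypoxia had made them. Bnip3l, a mitophagy receptor, read 5.65, 5.43 and 5.62 in normoxia, 5.24 on average in hypoxia and 6.80, 6.77 and 6.81 with quercetin (1.23 ± 0.10, adjusted p = 4.3e-05). Cited2, a coactivator-binding inhibitor of HIF, rose by 1.31 ± 0.13 (hypoxia 0.41).

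Some genes high in hypoxia did not pass with quercetin, and others were lower than in normoxia. Pdk1, which blocks pyruvate entry to the citrate cycle, had a difference of 0.56 ± 0.45 (adjusted p = 0.35), where hypoxia gave 2.17, and -0.08 without normoxia replicate 2. Adm, adrenomedullin, had 0.56 ± 0.48 (adjusted p = 0.38) and -0.07 without that replicate. Pfkm, a phosphofructokinase, fell by 0.42 ± 0.09 although hypoxia raised it (0.86). Of 10 oxygen-sensing genes 2 rose and 3 fell (20% and 30%, beside 23.0% and 21.3% over all genes). Hif1a fell by 0.72 ± 0.12 (hypoxia -0.67), Epas1, which encodes the other main HIF alpha subunit, by 1.72 ± 0.16 (hypoxia -0.59), and Arnt2 by 2.76 ± 0.17 (its other probe -1.64).

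The hypoxia response core, ACGTG, was searched on both strands in 300 bases of RefSeq promoters (build GRCr8, 250 before to 50 after the start). It was found in 32 of 54 HIF and glycolysis genes with an entry (59.3%), in 19 of the 29 that rose and had one, and in 19.3% of all 33469 promoters. Shown are the 250 bases before the start of the 2 members with the smallest adjusted p that hold it, Cited2 on the plus strand of chr1:14132053-14132302 and Plod2 on the plus strand of chr8:101964068-101964317, with matches in capitals.
Cited2: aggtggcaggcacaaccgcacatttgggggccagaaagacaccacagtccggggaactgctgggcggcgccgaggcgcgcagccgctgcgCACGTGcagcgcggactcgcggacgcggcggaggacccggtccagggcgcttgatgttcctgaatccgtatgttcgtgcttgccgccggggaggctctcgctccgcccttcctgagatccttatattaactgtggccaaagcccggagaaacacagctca
Plod2: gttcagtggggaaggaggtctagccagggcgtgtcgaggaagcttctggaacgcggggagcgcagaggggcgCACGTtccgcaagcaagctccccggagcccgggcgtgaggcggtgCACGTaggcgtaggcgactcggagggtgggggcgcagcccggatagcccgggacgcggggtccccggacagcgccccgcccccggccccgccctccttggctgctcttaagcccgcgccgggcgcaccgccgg
In Cited2 the match is the palindrome CACGTG, read on both strands, 160 bases before the start, and in Plod2 matches start 178 and 133 bases before it. A match is a description of letters and shows no binding.

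ER chaperones and folding enzymes were the group with the largest share of increases. Of 24 measured, 19 rose and 1 fell (Atf6, a sensor of misfolded proteins, by 0.55 ± 0.11), with a median of 0.74 beside 0.67 in hypoxia, and 0.34 with the spike-in probes. P4hb, protein disulfide isomerase, read 5.57, 5.50 and 5.64 in normoxia and 6.78, 6.99 and 6.90 with quercetin (1.32 ± 0.09, adjusted p = 2.9e-05, hypoxia 1.85). Hspa5, the main ER chaperone, rose by 0.78 ± 0.14 (hypoxia 1.26), and Derl1, a channel for misfolded proteins, by 1.85 ± 0.13 (hypoxia 2.46). Ero1b, an oxidase that drives disulfide formation, rose by 1.78 ± 0.11 (hypoxia 1.16). Sdf2l1, a cofactor of the same chaperone system, stood at 1.86, 1.89 and 1.49 in normoxia, 0.62 on average in hypoxia and 3.45, 3.44 and 3.47 with quercetin (1.70 ± 0.12). Derl3, described above, and Sdf2l1 were thus well above both other groups, while P4hb, Derl1 and Hspa5 lay between them.

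**Figure D3:**
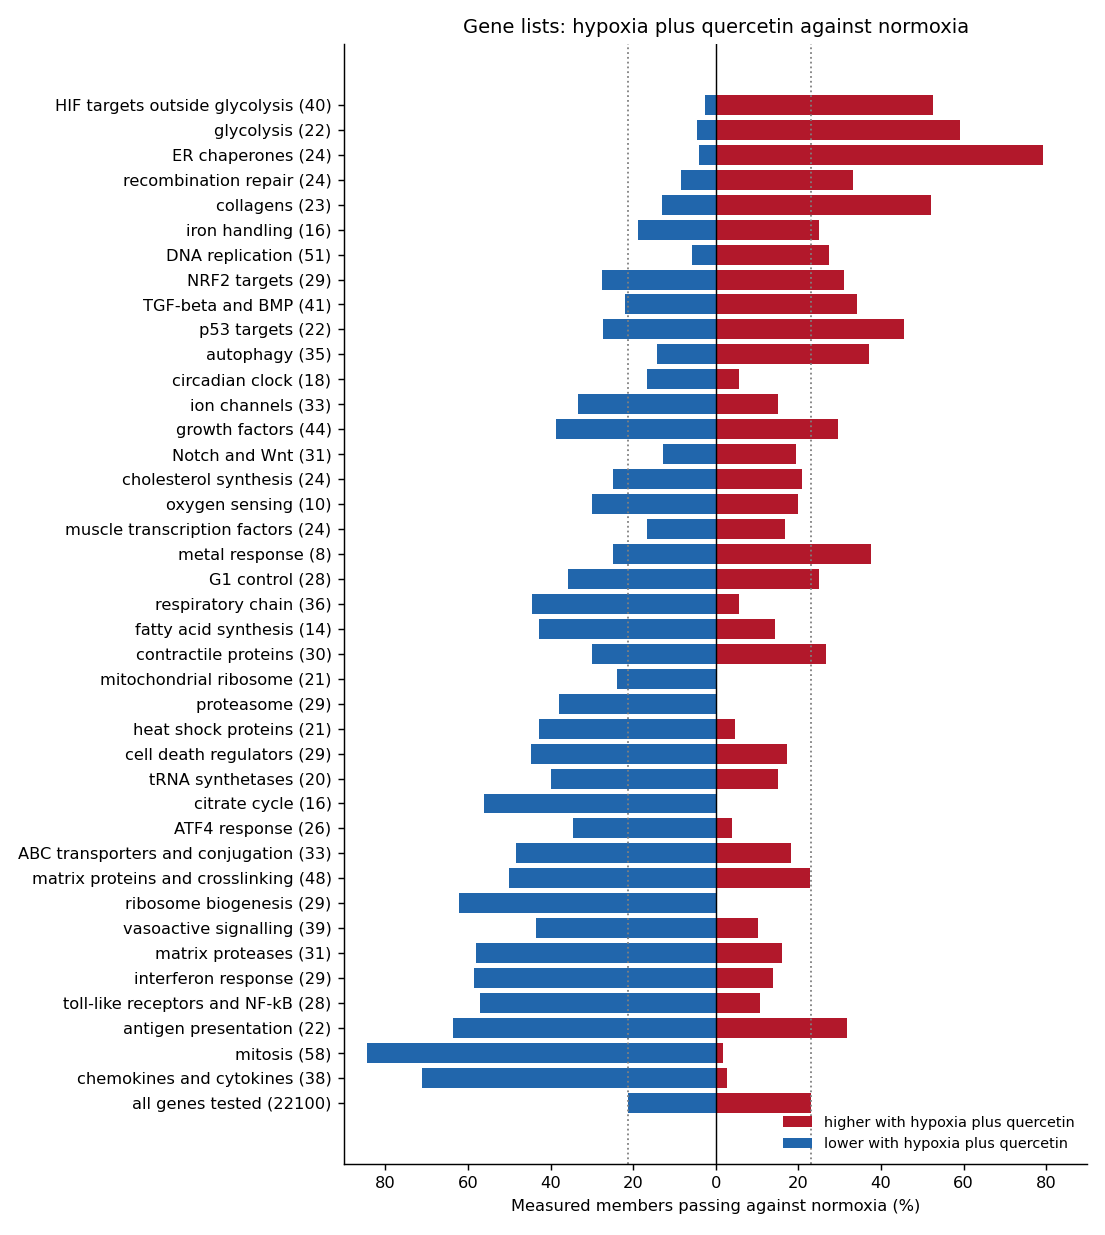
Share of measured members of each gene list (rows, number measured in brackets) that passed against normoxia, higher to the right in red and lower to the left in blue, in percent. Dotted lines mark the shares over all 22100 genes (23.0% higher and 21.3% lower). Lists are ordered by their median difference, from HIF targets at the top to chemokines and cytokines, and mitosis genes reach the largest share lower (49 of 58).

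Mitosis genes stayed lower than in normoxia. Of 58 measured, 49 fell and 1 rose, with a median of -1.06 beside -0.81 in hypoxia, and the median ranged from -1.46 to -0.80 over all alternatives. Kif20a, a kinesin of cytokinesis, read 3.29, 3.24 and 3.42 in normoxia, 2.00 on average in hypoxia and 0.94, 0.75 and 0.89 with quercetin, a fall of 2.46 ± 0.09 (adjusted p = 2.7e-06). Ccnb1, the mitotic cyclin, read 2.22, 2.17 and 2.51 in normoxia, 1.98 on average in hypoxia and 0.00, 0.13 and -0.07 with quercetin (-2.28 ± 0.12), so its difference was new. Pimreg, a mitotic regulator, fell by 2.85 ± 0.13 (hypoxia -1.67), and Pttg1, securin, by 1.90 ± 0.10 (hypoxia -0.91). Mki67, a marker of cycling cells, fell by 1.27 ± 0.10 (hypoxia -0.82). The quercetin arrays of Kif20a, Ccnb1 and Pttg1 lay below every other array.

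Mitotic genes share promoter elements, the CCAAT box and the cell cycle homology region (CHR), whose letters are TTTGAA. Searched on both strands, CCAAT was found within the 300 bases of 39 of 49 mitosis promoters with an entry (79.6%) and in 37.5% of all promoters, and TTTGAA in 36 of 49 (73.5%) and 18.3%. The 250 bases before the start are shown for the 3 members with the smallest adjusted p that hold either, with CCAAT and TTTGAA matches in capitals on either strand. Kif20a lies on the plus strand of chr18:26504172-26504421, Ccnb1 on the minus strand of chr2:33655226-33655475 and Pttg1 on the minus strand of chr10:28406327-28406576, in GRCr8.
Kif20a: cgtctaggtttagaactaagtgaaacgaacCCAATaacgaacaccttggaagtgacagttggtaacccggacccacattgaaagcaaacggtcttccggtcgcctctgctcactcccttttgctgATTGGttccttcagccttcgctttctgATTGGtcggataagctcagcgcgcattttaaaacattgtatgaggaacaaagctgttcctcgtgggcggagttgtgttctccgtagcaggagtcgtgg
Ccnb1: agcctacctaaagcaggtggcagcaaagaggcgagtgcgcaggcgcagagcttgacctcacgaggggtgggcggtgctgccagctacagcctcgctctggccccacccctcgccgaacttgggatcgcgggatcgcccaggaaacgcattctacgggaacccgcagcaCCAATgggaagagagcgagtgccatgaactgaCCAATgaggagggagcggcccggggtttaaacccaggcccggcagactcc
Pttg1: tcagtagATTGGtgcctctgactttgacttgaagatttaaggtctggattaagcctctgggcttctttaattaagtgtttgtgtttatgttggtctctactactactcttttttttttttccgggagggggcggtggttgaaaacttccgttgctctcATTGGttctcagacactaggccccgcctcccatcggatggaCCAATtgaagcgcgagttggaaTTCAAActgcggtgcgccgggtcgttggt
Each has a pair of CCAAT boxes within 125 bases of the start, at 125 and 98 in Kif20a, 82 and 50 in Ccnb1 and 92 and 51 in Pttg1, and Pttg1 has a CHR match 29 bases before it.

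Of 51 DNA replication genes 14 rose and 3 fell, with a median of 0.20 where hypoxia gave -0.51, though the median turned to -0.20 with spike-in scaling, where 1 rose and 12 fell. With normexp 1 rose and 1 fell, and without normoxia replicate 2 27 rose at a median of 0.41. Mcm8, a helicase, read -2.09, -1.72 and -1.90 in normoxia and -1.06, -1.03 and -1.06 with quercetin (0.86 ± 0.14, adjusted p = 0.0019, hypoxia -0.64). Fen1, a flap endonuclease, rose by 0.55 ± 0.11 (hypoxia -0.41), while Tyms, thymidylate synthase, fell by 0.68 ± 0.10. Of 28 genes of G1 control 7 rose (25%, near the 23.0% over all genes) and 10 fell (35.7%, beside 21.3%). E2f1, which drives entry into S phase, read 0.89, 1.65 and 0.88 in normoxia, 0.06 on average in hypoxia and 2.40, 2.23 and 2.39 with quercetin (adjusted p = 0.0015). Ccne2, a G1 cyclin, rose by 1.29 ± 0.12 (hypoxia 1.93), and Cdkn2c, a cell cycle inhibitor, fell by 1.02 ± 0.09 (hypoxia -0.12). Ccnd1 had a difference of -0.21 ± 0.29 (adjusted p = 0.59) beside 1.06 in hypoxia.

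Repair, p53 and death genes moved in both directions. Of 24 genes of recombination repair 8 rose and 2 fell (median 0.29, and -0.11 with spike-in scaling). Palb2, a scaffold of recombination, rose from -1.11, -0.92 and -0.98 to 0.28, 0.19 and 0.40 (1.29 ± 0.16, adjusted p = 3.7e-04, hypoxia -0.16). Of 22 p53 targets 10 rose (45.5%) and 6 fell (27.3%), beside 23.0% and 21.3% over all genes. Their median was 0.18, and -0.23 with spike-in scaling. Tp53inp1, a stress protein, rose by 1.44 ± 0.15, Ddb2, a sensor of damaged DNA, by 1.22 ± 0.17 and Cdkn1a, the cell cycle inhibitor p21, by 0.55 ± 0.10 (hypoxia 0.62). Plk3, a stress kinase, fell by 1.72 ± 0.23. Of 29 cell death regulators 5 rose and 13 fell. Casp8, an initiator caspase, read -1.97, -2.02 and -2.13 in normoxia and -4.07, -3.83 and -4.06 with quercetin (-1.95 ± 0.10, adjusted p = 7.4e-06, hypoxia -1.01). Casp1, of the inflammasome, fell by 2.20 ± 0.30, while Bcl2l11, the death promoter BIM, rose by 1.53 ± 0.19 (hypoxia 1.17).

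Chemokines and cytokines were the list with the lowest median. Of 38 measured, 27 fell and 1 rose, with a median of -1.63, and that median ranged from -2.03 to -0.75 over all alternatives. Without normoxia replicate 2, which was high in this list, the median was -1.40. Among the 27 members well above background on all 6 normoxia and quercetin arrays it was -0.86, with 17 lower and 2 higher. With that filter the mitosis list had a lower median, -1.06. Cxcl3, a neutrophil attractant, read 4.63, 5.36 and 3.73 in normoxia, -0.28 to -0.27 in hypoxia and -3.22, -1.67 and -3.00 with quercetin. It fell by 7.21 ± 0.47 (adjusted p = 2.2e-05), and its other probe gave -3.36, so the size rests on the probe. Ccl5, a lymphocyte attractant, fell from 2.06, 2.26 and 2.14 to -3.30, -1.64 and -2.98 (-4.79 ± 0.36, hypoxia -1.46). Quercetin replicate 2 was the highest of its group for both, and for Cxcl2 (-2.96, -0.27 and -3.20), which fell by 5.54 ± 0.69. Vcam1, which binds leukocytes, fell from 0.48, 1.43 and 0.67 to -3.90, -4.18 and -4.15 (-4.93 ± 0.22), beside -1.26 in hypoxia. Ccl2, a monocyte attractant, fell by 2.62 ± 0.29 and stayed far above background on all arrays. Ccl19, a lymphoid chemokine, read -1.07 to -0.54 in hypoxia and was not above background on any quercetin array.

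Of 28 genes of toll-like receptors and NF-kB 16 fell and 3 rose, with a median of -0.62. Tlr2, a receptor for bacterial lipoproteins, read 3.97, 5.04 and 3.13 in normoxia and -2.16, -2.11 and -2.03 with quercetin (-6.15 ± 0.39, hypoxia -5.64). Tlr4, the endotoxin receptor, fell by 2.08 ± 0.17 (hypoxia -1.84), and Cd14, its co-receptor, by 1.58 ± 0.18. Nfkb1, a subunit of NF-kB, fell from 2.97, 2.92 and 2.90 to 1.65, 1.65 and 1.62 (-1.28 ± 0.07, adjusted p = 1.3e-05, hypoxia -0.73). Tnfrsf1a, the main tumour necrosis factor receptor, fell by 1.50 ± 0.10, a new difference (hypoxia -0.18). Chuk and Traf6, carriers of the signal to NF-kB, rose by 0.73 ± 0.10 and 0.74 ± 0.16. Of 10 measured leukocyte markers 4 rose, among them Lyz2 (2.45 ± 0.37) and Cd68 (1.23 ± 0.13), and 2 fell, Cd14 among them. Their summed signal was lower on quercetin arrays (3.90 to 4.17) than on normoxia arrays (5.09 to 6.53). The part of leukocytes in the chemokine values was not tested.

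Among 29 genes that interferon induces, 17 were lower and 4 higher, at a median of -0.60. With normexp 6 were lower, at a median of -0.19. Ifit2, an antiviral protein, read 0.68, 1.39 and 0.57 in normoxia and -2.66, -2.98 and -2.53 with quercetin (-3.60 ± 0.22, adjusted p = 1.8e-05, hypoxia -3.11). Gbp2, a guanylate-binding protein, fell by 2.91 ± 0.21 (hypoxia -1.75) and Isg15, a ubiquitin-like protein, by 1.62 ± 0.12 (hypoxia -0.30), while Usp18, which removes Isg15 from proteins, rose by 0.96 ± 0.14 (hypoxia 1.07). The interferon-stimulated element core, searched on both strands of the 300 bases, was found in 13 of 24 promoters of the list (54.2%) and in 3.9% of all. It is in capitals in the 250 bases before the start of Ifi44 (minus strand, chr2:243303841-243304090, -1.65 ± 0.10) and Gbp2 (plus strand, chr2:234005477-234005726), the 2 members with the smallest adjusted p that hold it there.
Ifi44: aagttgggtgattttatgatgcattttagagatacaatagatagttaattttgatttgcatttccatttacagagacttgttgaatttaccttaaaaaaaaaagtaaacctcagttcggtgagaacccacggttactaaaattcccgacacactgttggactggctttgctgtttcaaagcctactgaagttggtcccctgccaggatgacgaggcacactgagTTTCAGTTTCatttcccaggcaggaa
Gbp2: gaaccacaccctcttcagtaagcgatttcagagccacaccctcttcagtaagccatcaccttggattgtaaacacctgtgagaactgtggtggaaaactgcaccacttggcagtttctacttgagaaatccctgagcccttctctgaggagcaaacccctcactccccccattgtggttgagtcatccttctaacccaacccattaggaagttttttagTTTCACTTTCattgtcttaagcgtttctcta
The match starts 26 bases before the start of Ifi44 and 31 before that of Gbp2, on the reverse strand in both.

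Of 22 antigen presentation genes 7 rose and 14 fell, with a median of -0.80. Among the 19 well above background on all 6 normoxia and quercetin arrays 7 rose and 11 fell, at a median of -0.45. The class I heavy chains RT1-A2 and RT1-CE16 rose by 2.09 ± 0.17 and 1.84 ± 0.13, as in hypoxia alone (2.09 and 1.80). These heavy chains are close copies of each other and their probes may share signal. Psmb8, an immunoproteasome subunit, read 1.40, 0.79 and 1.30 in normoxia, 1.68 on average in hypoxia and -1.42, -1.22 and -1.40 with quercetin (-2.51 ± 0.16, adjusted p = 1.9e-05). Psmb9, its partner, fell by 1.45 ± 0.10 (hypoxia 0.69) and Psme1, a proteasome activator, by 1.33 ± 0.09. Tapbpl, a peptide editor, fell by 1.96 ± 0.12. Of 29 constitutive proteasome subunits 11 fell and none rose by limma at adjusted p, the most by Psmc3 (-0.67 ± 0.11).

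Of 23 collagens 12 rose and 3 fell (median 0.28, and -0.12 with spike-in scaling), and with scan day as a block 5 rose and 6 fell. Col4a1, of the basement membrane, read 4.86, 4.73 and 5.01 in normoxia and 5.94, 5.80 and 5.94 with quercetin (1.03 ± 0.10, hypoxia 1.01), though its other probe gave 0.43, and Col4a2 rose by 0.89 ± 0.12 (hypoxia 1.01). Col5a2 rose by 0.58 ± 0.09. Col3a1 had a difference of 0.04 ± 0.09 (adjusted p = 0.76), beside 0.53 in hypoxia, and passed as lower with spike-in scaling. Col14a1, a fibril-associated collagen, fell by 2.08 ± 0.29 (other probe -1.48), with hypoxia at -0.26.

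Of 48 other matrix proteins and crosslinking enzymes 24 fell and 11 rose, with a median of -0.40. Decorin (Dcn), a proteoglycan that coats collagen, read 1.05, -0.11 and -0.41 in normoxia and -4.99, -3.50 and -4.19 with quercetin (-4.41 ± 0.46, hypoxia -4.24). Fibromodulin (Fmod), of the same family, read 5.40, 5.14 and 5.41 in normoxia, 4.26 on average in hypoxia and 2.31, 2.50 and 2.42 with quercetin (-2.91 ± 0.10, adjusted p = 1.9e-06). Asporin (Aspn) fell by 3.12 ± 0.13 (hypoxia -1.22), lumican (Lum) by 3.14 ± 0.28 (hypoxia -3.62) and Thbs2, a thrombospondin, by 4.12 ± 0.22 (other probe -3.30). Mfap4, of elastic fibres, fell by 2.30 ± 0.12 (hypoxia -0.33), and elastin (Eln) by 1.08 ± 0.24 where hypoxia gave 0.78. Aggrecan (Acan) rose by 1.67 ± 0.18 (hypoxia 1.83). Decorin, lumican, Mfap5 and Fap are also on the fibroblast marker list, of which 8 of 11 measured fell and 3 rose, and the part of fibroblast content in these values was not tested.

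Of 31 proteases and their regulators 18 fell and 5 rose, with a median of -0.58. Mmp3, stromelysin, read 2.13, 3.13 and 0.82 in normoxia, -3.51 to -3.03 in hypoxia and -5.85, -3.03 and -6.26 with quercetin (-7.08 ± 0.85, adjusted p = 3.5e-04). Only quercetin replicate 2, the highest, was above background. Mmp13, a collagenase, fell by 3.51 ± 0.51 (hypoxia -3.66). Mmp9 stood no higher than -0.22 in normoxia, at -0.48 to -0.40 in hypoxia and -4.44, -3.32 and -4.04 with quercetin. Mmp23 fell by 1.94 ± 0.18 (hypoxia -0.04), Plaur, the urokinase receptor, by 1.28 ± 0.10 (hypoxia 0.19) and Timp2, an inhibitor of these enzymes, by 0.72 ± 0.08. Adamts12 rose by 1.24 ± 0.18 where hypoxia gave -1.08. The collagenase and stromelysin losses were thus already present in hypoxia, and those of Mmp9 and Mmp23 were new with quercetin.

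Of 39 vasoactive signalling genes 17 fell and 4 rose, with a median of -0.54, but with normexp background correction 5 fell, 1 rose and the median was 0.03. Among the 26 members well above background on all 6 normoxia and quercetin arrays 10 fell and 5 rose, at a median of -0.14. Gucy1a1, the alpha subunit of the nitric oxide receptor guanylate cyclase, read -0.62, -0.16 and 0.15 in normoxia, -4.28 to -3.98 in hypoxia and -4.94, -5.41 and -4.55 with quercetin. It fell by 4.76 ± 0.25 (adjusted p = 9.1e-06), with -2.36 from its other probe. Pde1a, which degrades cyclic nucleotides, was at least 8.44-fold lower. Ednra, the endothelin A receptor, read -0.05, 0.60 and 0.02 in normoxia, -1.80 on average in hypoxia and -3.06, -2.96 and -3.02 with quercetin (-3.21 ± 0.16, other probe -0.99). Agtr1a, an angiotensin II receptor, fell from 1.95, 2.31 and 1.99 to -0.18, -0.51 and -0.27 (-2.40 ± 0.13, hypoxia -1.42). Edn1, endothelin itself, rose by 0.65 ± 0.16 (hypoxia -0.06) but did not pass with normexp, spike-in scaling or scan day as a block. Htr2b, a serotonin receptor, rose by 1.55 ± 0.13 where hypoxia gave -0.72. Ramp1, of the calcitonin gene-related peptide receptor, rose by 2.10 ± 0.45, and by 1.50 without normoxia replicate 2, with hypoxia at 3.39, and it did not pass with scan day as a block.

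Of 33 ion channel genes 11 fell and 5 rose, though the median was 0.07, against the direction of the count, and it turned to -0.33 with spike-in scaling. With normexp 1 gene passed, and it fell. Kcnmb1, the subunit that tunes the large-conductance potassium channel of smooth muscle, read -2.46, -1.85 and -2.02 in normoxia, -2.80 on average in hypoxia and -4.23, -5.06 and -5.24 with quercetin (-2.74 ± 0.26, other probe -3.39). Cacna1h, a T-type calcium channel, rose by 1.67 ± 0.17 (hypoxia 1.87), and its relative Cacna1g fell by 0.94 ± 0.16 (hypoxia 0.59). Orai2, a store-operated channel, fell by 0.84 ± 0.12 (hypoxia -0.77). Kcnk3, the TASK-1 channel, had a difference of 0.33 ± 0.55 (adjusted p = 0.66) with overlapping groups, and Trpc6 0.22 ± 0.26 (adjusted p = 0.54), which passed without normoxia replicate 3.

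**Figure D4:**
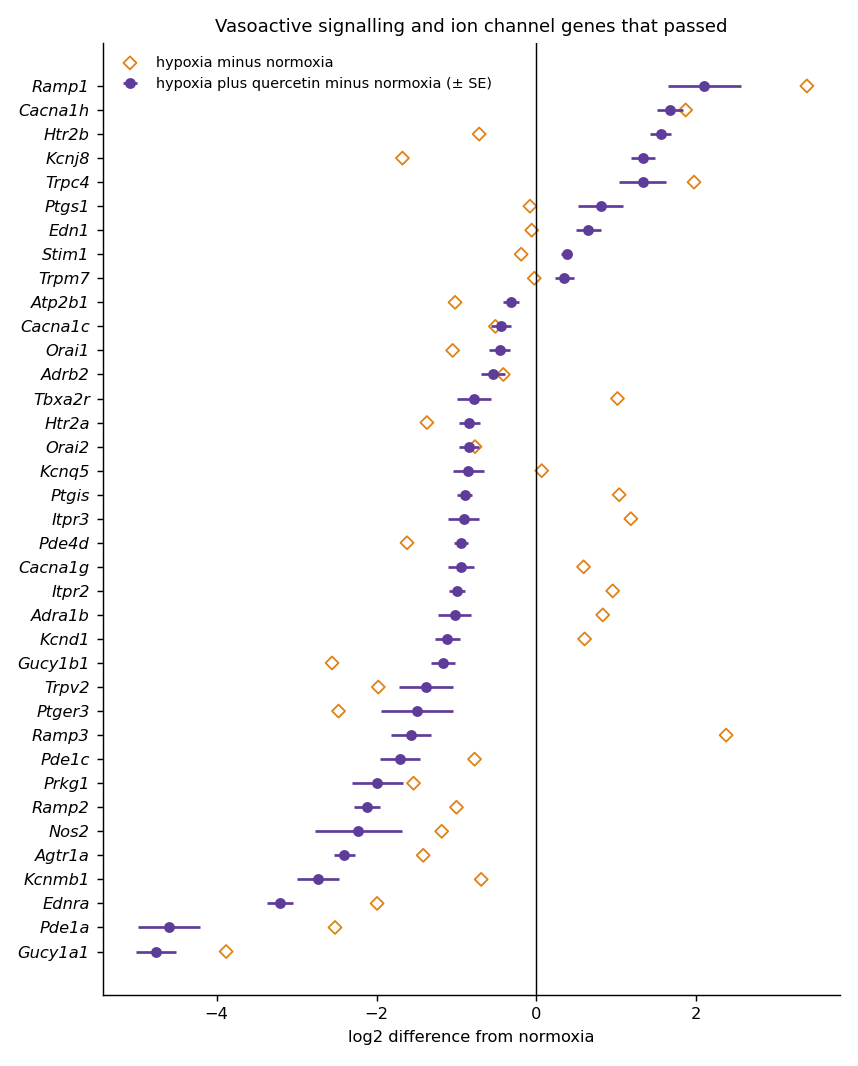
Log2 difference from normoxia (horizontal axis) of the 37 vasoactive signalling and ion channel genes that passed, for hypoxia plus quercetin (purple points, bars ± SE) and hypoxia alone (open orange diamonds). Gucy1a1 lies lowest at -4.76 and Ramp1 highest at 2.10, and for genes such as Ramp3, Kcnj8 and Htr2b the point and the diamond lie on opposite sides of 0.

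Of 30 contractile proteins 8 rose (26.7%, beside 23.0% over all genes) and 9 fell (30%, beside 21.3%), with a median of -0.20. Cnn1, calponin, read 2.58, 3.04 and 2.71 in normoxia, 4.11 on average in hypoxia and 1.71, 1.50 and 1.62 with quercetin (-1.17 ± 0.13, adjusted p = 2.1e-04). Tagln (-0.66 ± 0.15) and Csrp2 (-1.08 ± 0.10) likewise fell below normoxia where hypoxia gave 1.03 and 0.58. Ppp1r14a, which inhibits myosin phosphatase, fell by 2.12 ± 0.18, a new difference. Myh11, smooth muscle myosin, fell by 0.62 ± 0.16, but its other probe gave 0.28. Synm, the intermediate filament protein synemin, read -1.76, -1.74 and -1.44 in normoxia, -0.14 to -0.03 in hypoxia and 1.71, 1.21 and 1.54 with quercetin (3.14 ± 0.14), and Des, desmin, rose by 2.07 ± 0.16 (hypoxia 3.39). Of 12 measured smooth muscle markers 3 rose and 4 fell, and their part in these values was not tested. Of 24 muscle transcription factors 4 rose and 4 fell (16.7% each, beside 23.0% and 21.3% over all genes). Myocd had a difference of 0.21 ± 0.15 (adjusted p = 0.31), and passed without normoxia replicate 3 and with array weights. Meox2, a growth-arrest homeobox factor, fell by 1.81 ± 0.20 (hypoxia -0.99). Hopx rose by 1.08 ± 0.13 (hypoxia 1.84).

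Growth factor genes moved in both directions, 13 of 44 higher and 17 lower (29.5% and 38.6%, beside 23.0% and 21.3% over all genes). Ptn, pleiotrophin, fell by 3.77 ± 0.27 (hypoxia -2.27), and Igfbp4, which binds insulin-like growth factors, read 3.26, 2.92 and 3.08 in normoxia, 2.62 on average in hypoxia and 1.10, 1.10 and 1.28 with quercetin (-1.93 ± 0.11). Igfbp5 fell by 3.13 ± 0.28 (hypoxia -3.38) and Axl, a receptor kinase, by 1.49 ± 0.12 (hypoxia -0.38). Igf2 rose by 1.70 ± 0.13 (hypoxia 2.31) and Vegfd by 1.77 ± 0.19 (hypoxia 1.18). Of 41 TGF-beta and BMP genes 14 rose and 9 fell (median 0.18, and -0.22 with spike-in scaling). Nog, a BMP antagonist, rose by 2.15 ± 0.20. Tgfb1 fell by 1.38 ± 0.11 (hypoxia -0.41), and Tgfb3 rose by 1.10 ± 0.13 (hypoxia 1.32). Bmpr2, the receptor linked to heritable pulmonary hypertension, had a difference of -0.15 ± 0.13 (adjusted p = 0.40) and passed as lower without normoxia replicate 2 and with spike-in scaling. Of 31 Notch and Wnt genes 6 rose and 4 fell (19.4% and 12.9%, beside 23.0% and 21.3% over all genes). Axin2, a target of Wnt signalling, rose from -3.25, -3.44 and -3.24 to -1.60, -1.86 and -1.77 (1.57 ± 0.10, adjusted p = 1.8e-05), with hypoxia at 0.12, and Sfrp4, a Wnt antagonist, fell by 2.81 ± 0.20 (hypoxia -3.86).

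Of 36 respiratory chain genes 16 fell and 2 rose (median -0.18), and of 16 citrate cycle genes 9 fell and none rose by limma at adjusted p (median -0.31). Suclg2, a succinate-CoA ligase subunit, read 2.72, 3.01 and 2.82 in normoxia, 2.77 on average in hypoxia and 2.05, 1.89 and 2.01 with quercetin (-0.87 ± 0.10). Idh2 fell by 0.71 ± 0.11 where hypoxia gave 0.56, and Ndufv2, of complex I, by 0.76 ± 0.09 (hypoxia -0.41). Of 29 ribosome biogenesis genes 18 fell and none rose by limma at adjusted p (median -0.52). Wdr12 fell from 1.52, 1.29 and 1.32 to -0.29, 0.10 and -0.23 (-1.51 ± 0.12, hypoxia -1.67). With scan day as a block 4 respiratory chain, 3 citrate cycle and 9 ribosome biogenesis genes fell.

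Of 26 genes of the ATF4 response, which amino acid shortage turns on, 9 fell and 1 rose (median -0.34). Slc7a5, an amino acid transporter, fell by 1.98 ± 0.15 (hypoxia -1.78). Nupr1 read 7.09, 7.46 and 7.22 in normoxia, 7.87 on average in hypoxia and 5.96, 5.72 and 5.97 with quercetin (-1.38 ± 0.12). Of 21 heat shock proteins 9 fell and 1 rose (median -0.22). Hspa8, the constitutive cytosolic chaperone, fell by 1.00 ± 0.18 where hypoxia gave 0.72, and Cryab by 1.23 ± 0.10 (hypoxia 0.49). Hsph1 rose by 0.73 ± 0.13 where hypoxia gave -0.72.

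Of 8 metal-response genes 3 rose, all of them metallothioneins, small proteins that bind zinc and copper, and 2 fell. Mt1 read 7.23, 6.58 and 6.50 in normoxia, 7.39 on average in hypoxia and 8.51, 9.14 and 8.68 with quercetin (2.00 ± 0.22, adjusted p = 2.2e-04), and Mt2A rose by 1.47 ± 0.24 (hypoxia 0.26). Metallothionein genes are close copies, and their probes may share signal. Of 16 iron genes 4 rose and 3 fell, near the shares over all genes (median 0.26, and -0.15 with spike-in scaling). Ferritin heavy chain, Fth1, rose by 1.01 ± 0.16 (hypoxia 0.66), and Cp, ceruloplasmin, fell by 3.16 ± 0.33 (-1.79 to -3.50 from its other probes). Heph, its membrane relative, fell by 1.02 ± 0.10 (hypoxia 0.08). Of 29 NRF2 targets, the antioxidant set, 9 rose (31.0%) and 8 fell (27.6%), beside 23.0% and 21.3% over all genes. Their median was 0.18, and -0.22 with spike-in scaling. Nqo1 read -0.94, -1.01 and -1.18 in normoxia and -0.82, -0.92 and -0.88 with quercetin (0.17 ± 0.10, adjusted p = 0.19), beside -1.29 in hypoxia. Gclc, which limits glutathione synthesis, rose by 0.68 ± 0.15, and Gstm1, a glutathione transferase, fell by 0.93 ± 0.16. Hmox1, heme oxygenase, had a difference of 0.80 ± 0.56 (adjusted p = 0.28) and 0.11 without normoxia replicate 2.

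Of 33 ABC transporters and conjugation enzymes 16 fell and 6 rose (median -0.36). Cyp2j4, a cytochrome P450, fell by 3.72 ± 0.23 (hypoxia -2.80) and Mgst1 by 3.38 ± 0.27 (hypoxia -2.20), while Abcb1b, a drug efflux pump, rose by 0.72 ± 0.09 where hypoxia gave -1.11. Cyp1b1, a target of the aryl hydrocarbon receptor, which flavonoids can bind, fell by 1.21 ± 0.21 (hypoxia -1.55), and Tiparp, another target, had 0.13 ± 0.41 (adjusted p = 0.82). Of 24 cholesterol synthesis genes 5 rose and 6 fell, near the shares over all genes. Sqle, squalene epoxidase, read 2.37, 2.01 and 2.29 in normoxia, 2.11 on average in hypoxia and 3.79, 4.13 and 3.99 with quercetin (1.75 ± 0.12, adjusted p = 2.8e-05), and Lss, the next enzyme, fell by 0.84 ± 0.08. Srebf1, a regulator of lipid synthesis, fell by 1.04 ± 0.15, but its other probes gave -0.05 and -1.10.

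**Figure D5:**
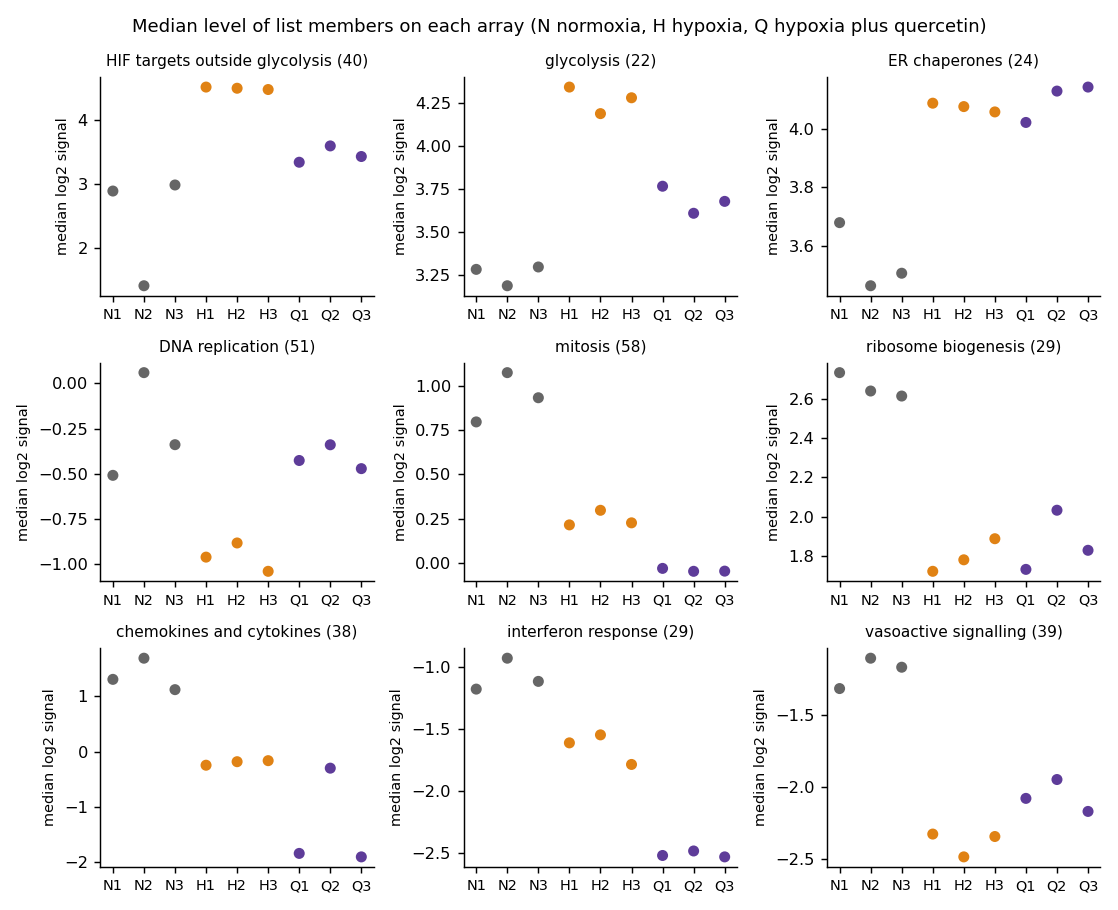
Median level of the measured members of 9 gene lists (vertical axes, log2 signal minus the array's 75th percentile) on each array (N normoxia, H hypoxia, Q hypoxia plus quercetin, with the replicate number). Normoxia replicate 2 is low in HIF targets (1.41, against 2.89 and 2.99), quercetin replicate 2 is high in chemokines and cytokines, and the mitosis median is lowest on the 3 quercetin arrays.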

How the data were processed

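The deposited scanner files hold 1-colour array intensity values, background-subtracted by Agilent Feature Extraction 10.7.3.1 per the file headers. The authors' deposited log2 value table correlated with these at 0.9913 to 0.9998 per array and served as an alternative. Its normalization is not stated in the labels. From the intensities, outlier and control spots were left out, spots of a probe averaged, and log2 values centred on each array's 75th percentile. Of 41012 probes 26646 were above background on all arrays of a group and gave 22100 genes, each by its brightest probe. Names came from accession (18028 probes), symbol (3168) or synonym (400) in RefSeq (GRCr8), otherwise from the file. limma 3.58.1 in R 4.3.3 fitted all 9 arrays, with Benjamini-Hochberg adjustment. Named genes come from those with a symbol and non-overlapping arrays that had the 12 largest changes per direction or the 8 largest per class and direction, from up to 5 members per list by adjusted p with up to 2 of the other direction, and from a fixed set. A fold "at least" sets the bright group's mean against the dim group's floor, the higher of the lowest signal above background and the probe's own. The lists and members were chosen with earlier results of these data known. Steps were tested on simulated data.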

Additional observations from a re-analysis of the deposited data

How the results depend on the processing

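With normexp background correction 3177 genes passed and 1001 of them changed at least 2-fold. These held 348 kept, 282 new, 135 farther, 59 opposite and 116 part returned. Of the 2859 genes changed at least 2-fold in the main fit, 175 had the opposite sign with normexp. With spike-in scaling the kept class held 1351 genes and the part returned class 708. With scan day as a block 5816 genes passed and 262 had part returned. A class limit of 0.3 gave 563 kept, 415 new and 789 farther, and a limit of 0.8 gave 197 farther, 127 opposite and 279 part returned. The cause of these shifts was not tested. Leaving out 1 array at a time gave 7702 to 9882 genes passing and 2601 to 3143 changed at least 2-fold. Deviations of same-numbered arrays from their group means correlated at -0.27 to -0.03. With 3 arrays per group these deviations depend on each other, so they cannot show whether the numbers pair samples. With a replicate block 8513 genes passed and 2806 changed at least 2-fold. Of the genes changed at least 2-fold, 80.2% kept call and direction with scan day as a block and 51.0% with normexp. With spike-in scaling Col3a1 turned to -0.37, and the list medians of aryl hydrocarbon receptor targets to -0.25, p53 targets to -0.23 and autophagy to -0.24. The slide of the quercetin arrays held no other group, so slide and group cannot be told apart. Dim probes limit the lower end of many decreases. Of 177 genes named, 40 lost their call with normexp: Angptl4, Atf6, Bcl2l11, Cacna1g, Cacna1h, Casp1, Casp8, Ccl19, Cdkn1a, Clic2, Col14a1, Col5a2, Cp, Dennd2d, Des, Edn1, Egln1, Epas1, Fen1, Gclc, Hspa5, Htr2b, Igfbp5, Isg15, Kcnj8, Kcnmb1, Lyz2, Matn1, Mcm8, Mgst1, Pde1a, Pfkm, Plod2, Ptn, Ramp3, Sfrp4, Slc26a7, Slc2a1, Tapbpl and Usp18. With scan day as a block 14 lost it: Angptl4, Baat, Car9, Edn1, Egln1, Eno2, Gclc, Hspa8, Matn1, Myh11, Ramp1, Slc2a1, Tagln and Traf6. With spike-in scaling 9 lost it: Cdkn1a, Chuk, Col5a2, Edn1, Fen1, Gclc, Hspa5, Hsph1 and Traf6.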

Other observations

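Of 35 autophagy genes 13 were higher and 5 lower with hypoxia plus quercetin than in normoxia (median 0.16, and -0.24 with spike-in scaling). Of 20 tRNA synthetases, which load amino acids onto tRNA, 3 rose and 8 fell. Of 21 genes of the mitochondrial ribosome 5 fell (23.8%), near the share over all genes (21.3%). In that list 0 rose, beside 23.0% over all genes, and the median was -0.20. Fatty acid synthesis had 2 of 14 higher and 6 lower. In the circadian clock list 1 of 18 rose and 3 fell, where hypoxia alone had 10 higher and 2 lower. Of 6 targets of the aryl hydrocarbon receptor 2 rose and 1 fell. Mesothelial markers summed to 15.9 to 17.2 in normoxia and 7.69 to 8.23 with quercetin, with 4 of 7 measured.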
